A study of Mus musculus with 5 samples.

Results

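Mast cells store proteases in granules that are packed around serglycin, a small proteoglycan core protein carrying long sulfated sugar chains. The set described here holds 10 genes chosen by name for their role: Cpa3, the granule carboxypeptidase whose promoter name the Cre driver carries, Srgn, which encodes serglycin, and 8 enzymes that modify heparan sulfate and heparin chains. All 10 were found by gene symbol among the 25549 gene models, and 8 of them had a p-value. The 2 without one were Ndst1 and Ndst2.

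RNA was taken from bone marrow-cultured mast cells, an outgrowth of mouse bone marrow in interleukin-3, here over 6 to 8 weeks at 50 ng/mL. All mice were C57BL/6 and carried Cpa3-Cre. The control group had Cpa3-Cre alone (n = 2 samples), and the other group had Cpa3-Cre with miR-9∆fl/∆fl (n = 3 samples), called the miR-9 line below. The labels call the mice age- and sex-matched, give no age, and say neither whether Cre was inserted in the Cpa3 gene or carried elsewhere, nor whether recombination raises or removes the microRNA. Because both groups carry Cpa3-Cre, the comparison does not read any effect of the Cre allele itself. Whether each sample stands for its own mouse or culture is not stated, so the spread behind the p-values may be technical. Values per sample were not used here, so the level of each gene in each sample is not given. In bulk RNA, fewer cells of a type and less RNA per cell cannot be told apart.

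Heparin is a highly sulfated form of heparan sulfate. As the chain is polymerised, N-deacetylase/N-sulfotransferases exchange acetyl for sulfate groups on glucosamine, an epimerase turns glucuronic into iduronic acid, and sulfotransferases then add sulfate at the 2-O, 6-O and, most rarely, 3-O positions. The 3-O-sulfate creates the binding site of antithrombin and of some other proteins. Mast cells use these chains to hold carboxypeptidase A3 and chymases in the granule, and mast cells grown in interleukin-3 are known to carry mainly chondroitin sulfate chains on serglycin.

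Of the 8 genes with a p-value, 1 fell and none rose in the miR-9 line at a Benjamini-Hochberg adjusted p under 0.05, and the gene that fell was Hs3st5. Across all 24071 genes with a p-value 0.411 percent passed, 0.245 percent as higher and 0.166 percent as lower. By the authors' deposited table, log2 fold changes of the 10 genes ran from -2.58 to 0.50, with 5 positive and 5 negative. The median of the 8 with a p-value was 0.01, where all genes had a median of -0.09 and 59.8 percent of negative values. The 3 lowest values belonged to the 3-O-sulfotransferases, and the highest to Hs6st1, Ndst2, Cpa3 and Srgn in that order. At an unadjusted p under 0.05 stood 3 of the 8, Hs3st5, Hs3st3b1 and Hs6st1, against 7.92 percent of all genes.

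**Figure D1:**
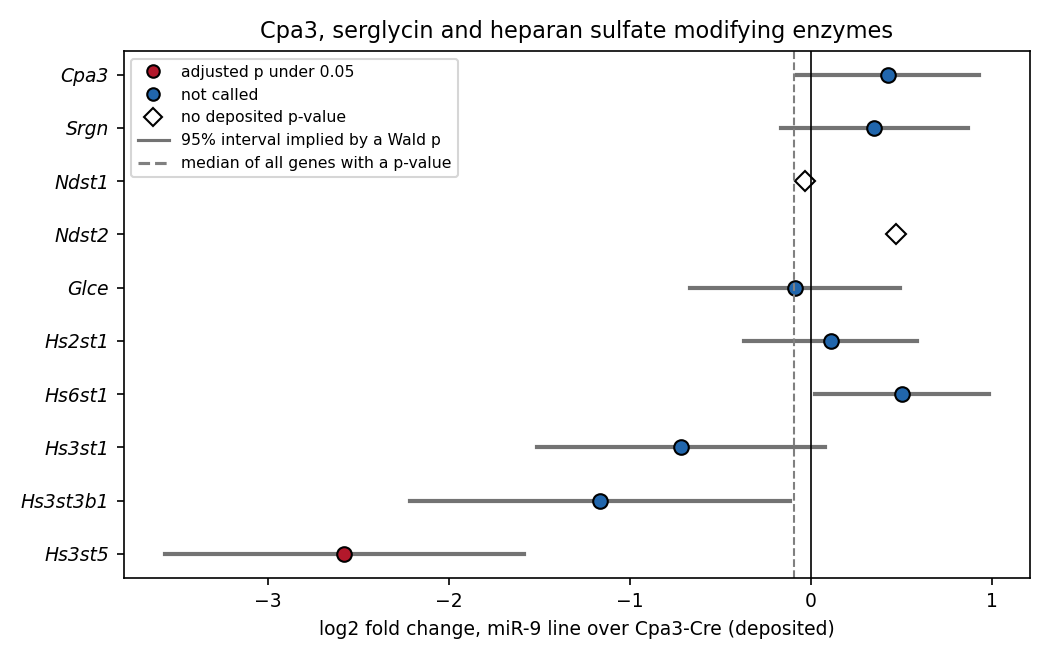
Log2 ratio of the miR-9 line to Cpa3-Cre from the authors' deposited table (x axis) for the 10 genes (y axis); lines are 95% intervals on the condition that the p-value came from a Wald test, and diamonds have no p-value. Hs3st5 at -2.58 is the 1 gene past the threshold, and its interval ends at -1.58.

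The table gives no standard error. If its p-values are those of a two-sided Wald test, which is the default of DESeq2, each log2 fold change and its p-value imply one, and the standard errors and 95% intervals below are computed on that condition. They cover the spread that the authors' fit estimated from 2 and 3 samples. The largest p-value that still passed after adjustment was 0.000205, so a gene with the implied standard error of Cpa3 needed a change of about 1.93-fold to pass, and one with that of Hs3st3b1 about 3.97-fold.

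Cpa3 encodes a zinc exopeptidase that removes aromatic and aliphatic residues from the ends of peptides. By the authors' deposited table its log2 fold change was 0.42, or 1.34-fold, with p = 0.0983. The adjusted p was 0.729, the implied standard error 0.26, and the interval ran from -0.08 to 0.93, that is from 0.947-fold to 1.90-fold. Among all genes with a p-value, 8.11 percent had a higher log2 fold change than Cpa3. The gene model lies at chr3:20215617-20242181 (GRCm38, minus strand) with 11 exons and 1452 exonic bases.

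The RefSeq promoter window of Cpa3 is shown because the driver of Cre in both groups is named after this promoter; the labels do not say how much of it the driver holds. The window covers chr3:20242132-20242431 on the minus strand (GRCm38.p6). Capitals mark GATA, the core letters bound by GATA factors, and CANNTG, the E-box letters bound by factors such as MITF, on either strand; the 2 motifs do not overlap in this window.
Cpa3 promoter: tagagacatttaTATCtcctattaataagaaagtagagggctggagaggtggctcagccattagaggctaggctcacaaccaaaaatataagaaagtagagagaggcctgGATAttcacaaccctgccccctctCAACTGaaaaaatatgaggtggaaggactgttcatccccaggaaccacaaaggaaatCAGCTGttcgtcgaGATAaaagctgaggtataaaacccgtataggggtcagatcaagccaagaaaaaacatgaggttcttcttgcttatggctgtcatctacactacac
GATA was found 3 times and CANNTG 2 times in these 300 bases. Of the 32851 RefSeq windows of this length, 57.9 percent hold GATA and 72.3 percent hold CANNTG. The motif CACGTG, a stricter E-box present in 7.15 percent of windows, was not among these letters.

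The genes beside Cpa3 had values of the same sign. Cpb1, which encodes another carboxypeptidase and lies 6083 bases away, stood at 0.20 per the authors' deposited table (p = 0.594). Gyg, the glycogenin gene on the other side, had a log2 fold change of 0.40 per the authors' deposited table (p = 0.329). A microRNA model inside an intron of Cpa3, mmu-mir-7007, shares no exonic base with it and stood at 0.01 per the authors' deposited table. The A-type carboxypeptidase genes Cpa1, Cpa4, Cpa5 and Cpa6, which are not known as mast cell granule enzymes, had negative values between -0.69 and -0.33 per the authors' deposited table. None of these 4 passed the test, and a difference between Cpa3 and these relatives was not tested.

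Srgn gave a value close to that of Cpa3. Its log2 fold change per the authors' deposited table was 0.35, or 1.28-fold, with p = 0.183. After adjustment p was 0.810, and the implied standard error of 0.26 gave an interval from -0.17 to 0.87. Serglycin is the core protein on which both heparin and chondroitin sulfate of the granule are built. The Srgn model spans chr10:62493833-62527451 on the minus strand, with 7 exons and 2196 exonic bases. Its neighbours Vps26a, a retromer subunit gene, and 2510003E04Rik had similar values of 0.34 (p = 0.251) and 0.39 (p = 0.107) per the authors' deposited table.

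The first modification step is made by the N-deacetylase/N-sulfotransferases. Ndst2 (chr14:20723739-20730327, minus strand), the enzyme that mast cells need for heparin, stood at 0.47 per the authors' deposited table, or 1.38-fold. Ndst1, which acts on heparan sulfate in most tissues, stood at -0.03, or 1.02-fold lower, in the same authors' deposited table. Neither has a p-value, so whether these values exceed the spread between samples was not analysed here. Rows without a p-value made up 5.78 percent of the whole table, with the authors' reason for leaving them empty not given in the sources used here. The relatives Ndst3 (-0.03, p = 0.927) and Ndst4 (-0.13, p = 0.746) did not pass per the authors' deposited table.

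The epimerase and the 2-O-sulfotransferase act as a pair on the uronic acid, and both lay near 0. Glce, the epimerase gene, had a log2 fold change of -0.09 per the authors' deposited table (p = 0.764). Its implied interval reached from -0.67 to 0.49, that is from 0.629-fold to 1.41-fold. For Hs2st1, the 2-O-sulfotransferase gene, the authors' deposited table held 0.11 (p = 0.652), with an implied interval from -0.37 to 0.59. Glce lies at chr9:62057248-62070606 and Hs2st1 at chr3:144431103-144570181, both on the minus strand.

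Hs6st1, a 6-O-sulfotransferase gene, had the highest value of the 10. Its log2 fold change per the authors' deposited table was 0.50, or 1.42-fold, with p = 0.0410. It did not pass the adjustment over all genes (adjusted p = 0.590), although its implied interval from 0.02 to 0.98 lay just above 0. As a description, 6.01 percent of the genes tested stood higher. The model lies at chr1:36068400-36106446 on the plus strand and has 2 exons. Its relative Hs6st2 had a value of 0.06 per the authors' deposited table (p = 0.854).

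The 3-O-sulfotransferases showed the lowest values. Hs3st5, whose enzyme can form antithrombin-binding sites, fell by 2.58 on the log2 scale per the authors' deposited table, a level 5.96-fold lower in the miR-9 line with p = 3.61e-07. Its adjusted p was 0.000621. The implied standard error was 0.51 and the interval ran from -3.57 to -1.58, that is, the level in the miR-9 line was between 0.0843 and 0.334 of the control level. By p-value it ranked 14 of 24071, and 2 genes had a lower log2 fold change. The gene model spans 327584 bases at chr10:36506814-36834397 (GRCm38, plus strand), with 8 exons and 4340 exonic bases. Whether the deposited log2 fold changes were shrunken towards 0 is not stated. If they were, the unshrunken values would be larger in size, and the implied errors would not be those of the unshrunken values. The 5.96-fold and its interval would then describe shrunken values and not plain ratios of levels. Implied standard errors came to 0.54 for Hs3st3b1 and for the lymphocyte and stromal markers Cd4 and Col1a1, and whether shrinkage set them was not tested.

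The promoter window of Hs3st5 is shown as that of the 1 gene called, at chr10:36506557-36506856 on the plus strand (GRCm38.p6), with the same motifs in capitals. The RNA values do not measure activity of this window.
Hs3st5 promoter: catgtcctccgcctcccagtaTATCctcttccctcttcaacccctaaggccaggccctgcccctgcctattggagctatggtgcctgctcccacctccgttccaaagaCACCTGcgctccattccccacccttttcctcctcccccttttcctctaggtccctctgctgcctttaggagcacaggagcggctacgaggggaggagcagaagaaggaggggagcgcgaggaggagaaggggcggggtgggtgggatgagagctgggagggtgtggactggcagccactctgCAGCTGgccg
It holds GATA 1 time and CANNTG 2 times, and its GC content of 63.0 percent is above the 43.3 percent of the Cpa3 window. CACGTG was not among its letters.

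The surroundings of Hs3st5 gave smaller values. Gm22554, a small nucleolar RNA model of 147 bases within an intron of Hs3st5 and on the opposite strand, had a log2 fold change of -1.19 per the authors' deposited table (p = 0.0192, adjusted p = 0.456). It shares no exonic base with Hs3st5. The use of strand in counting is not given, so whether reads from the 2 strands were told apart there is not known. Hdac2, a histone deacetylase gene that begins 140147 bases past the end of Hs3st5, stood at 0.24 per the authors' deposited table (p = 0.209). On the other side the nearest gene with a p-value was Amd2, at -0.36 per the authors' deposited table (p = 0.276).

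**Figure D2:**
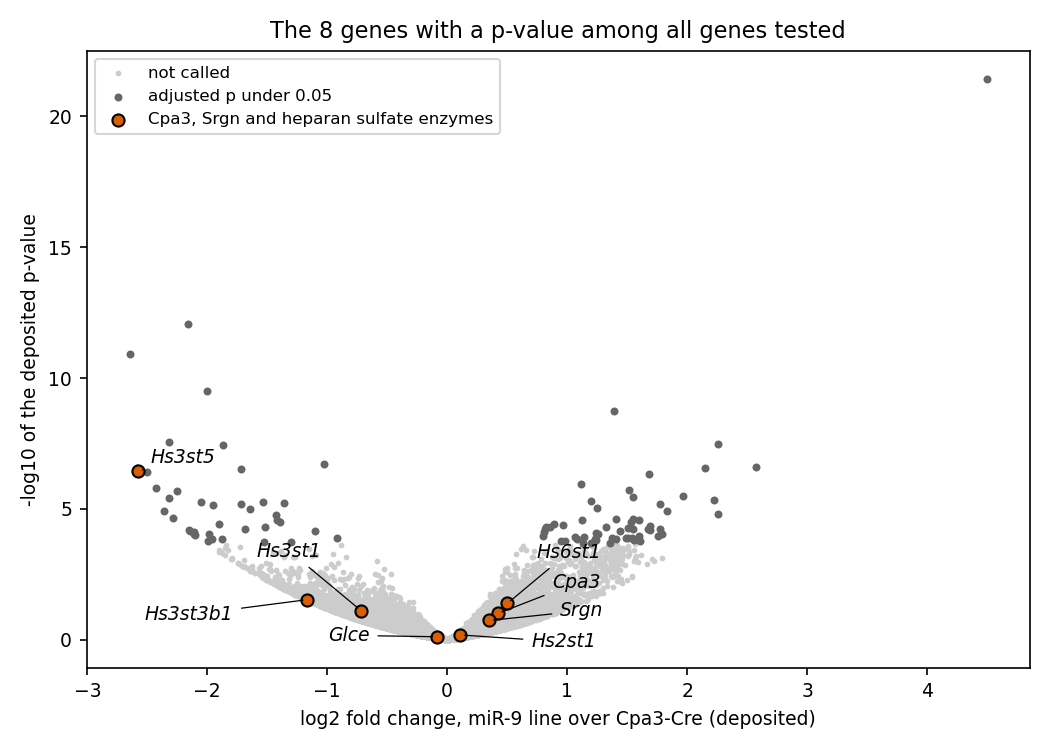
Log2 fold change (x axis) against -log10 of the p-value (y axis) from the authors' deposited table for its 24071 genes with a p-value; dark points passed an adjusted p of 0.05 and orange points are the 8 genes of the set with a p-value. Hs3st5 lies among the called genes on the left, and the other 7 lie within the grey cloud.

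The other 3-O-sulfotransferase genes had negative values without passing. Hs3st3b1, whose product makes the 3-O-sulfate bound by herpes simplex glycoprotein D, had a log2 fold change of -1.17, or 2.25-fold lower, per the authors' deposited table (p = 0.0293, adjusted p = 0.528). Its implied interval from -2.22 to -0.12 overlaps that of Hs3st5. Hs3st1, the main maker of antithrombin-binding sites in many cells, stood at -0.72, or 1.64-fold lower, per the authors' deposited table (p = 0.0771, adjusted p = 0.700). Hs3st3a1 (-0.65, p = 0.202) and Hs3st4 (-0.57, p = 0.266) also had negative values per the authors' deposited table. All 5 family genes analysed were thus negative, with a median of -0.72, while 1 of the 5 passed. The log2 fold change of Hs3st5 was lower than those of the other 4 by 1.41 to 2.01, differences that were not tested. Hs3st2 and Hs3st6 were not analysed here. Among all genes tested 59.8 percent were negative as well. Implied standard errors were 0.54 for Hs3st3b1, 0.51 for Hs3st5, Hs3st3a1 and Hs3st4, and 0.41 for Hs3st1. Negative medians were also seen outside the family, at -0.61 for the other metallocarboxypeptidases and -0.53 for lymphocyte markers. Neither was as low as the -0.72 of the family. The other pathway lists described below had medians from -0.26 to 0.17. Whether low counts go with the negative values of this family was not tested. Hs3st3b1 lies at chr11:63885792-63922290 and Hs3st1 at chr5:39613935-39755475, both on the minus strand.

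Around these enzymes, 8 lists covered the rest of the pathway and related genes. Of their 103 genes found, 87 had a p-value and none passed the adjustment of the deposited p-values, with a smallest adjusted p of 0.220. Among all genes with a p-value 0.411 percent passed, which is the share to set beside this count and those of the single lists below. At an unadjusted p under 0.05 were 6 of the 87, 2 higher and 4 lower, which is 6.90 percent where all genes had 7.92 percent. Their median log2 fold change was -0.11, close to the -0.09 of all genes.

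Synthesis of the chain and its building blocks came first. None of the 11 tested genes of the linkage region and polymerisation passed, with a median of 0.02. The polymerase gene Ext1 (-0.46, p = 0.164) and the xylosyltransferase gene Xylt1 (-0.51, p = 0.172), which starts each chain, had the lowest p-values of that list per the authors' deposited table. The 16 tested genes of sulfate donor and nucleotide sugar supply had a median of 0.17, with 12 positive, and none passed. Papss2, a synthase of the sulfate donor PAPS, stood at 0.73 (p = 0.0281) and Gfpt1, which opens hexosamine synthesis, at 0.50 (p = 0.0214) per the authors' deposited table. Papss1 (0.41, p = 0.138) and Ugdh, which makes the precursor of glucuronic acid (0.36, p = 0.149), also had positive values per the authors' deposited table. Both Papss2 and Gfpt1 missed after adjustment, at 0.521 and 0.472.

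Chondroitin sulfate synthesis held the smallest p-value of the lists. Chsy1, a chondroitin polymerase gene, had a log2 fold change of -0.997 per the authors' deposited table (p = 0.00440, adjusted p = 0.220). Chst3, a chondroitin 6-O-sulfotransferase gene, stood at -0.70 per the authors' deposited table (p = 0.0602). The other 10 tested members had p-values above 0.05, no member passed, and the median of the 12 was -0.01.

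Removal and breakdown genes did not pass either. Among 13 tested, 9 were negative and the median was -0.26. Sulf1, an extracellular enzyme that strips 6-O-sulfate, stood at -0.81 per the authors' deposited table (p = 0.111). Idua, the lysosomal iduronidase gene, stood at -0.28 (p = 0.142) and Hpse2 at -0.49 (p = 0.274) per the authors' deposited table. Arsg, a lysosomal sulfatase that removes 3-O-sulfate, stood at -0.30 (p = 0.308) per the authors' deposited table. Hpse, the heparanase gene, stood at -0.07 per the authors' deposited table and has no p-value.

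Among proteoglycan core proteins other than serglycin, 8 of 11 tested were negative with a median of -0.26, and none passed. The glypican gene Gpc6 (-0.91, p = 0.0148) and the perlecan gene Hspg2 (-1.05, p = 0.0386) had the smallest p-values of that list per the authors' deposited table. The other metallocarboxypeptidases had the lowest median of the 8 lists, at -0.61, with 11 of 14 tested negative and none passing. The membrane enzyme gene Cpm stood at -0.85 (p = 0.0381) and Cpe, which trims prohormones, at -0.99 (p = 0.0585) per the authors' deposited table. The 5 tested genes of granule cathepsins and inhibitors had a median of -0.13 and none passed. Their smallest p-value was that of Cst3, the cystatin C gene, at -0.48 per the authors' deposited table (p = 0.132). Ctsc, whose product activates granule serine proteases, stood at -0.33 per the authors' deposited table (p = 0.419).

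**Figure D3:**
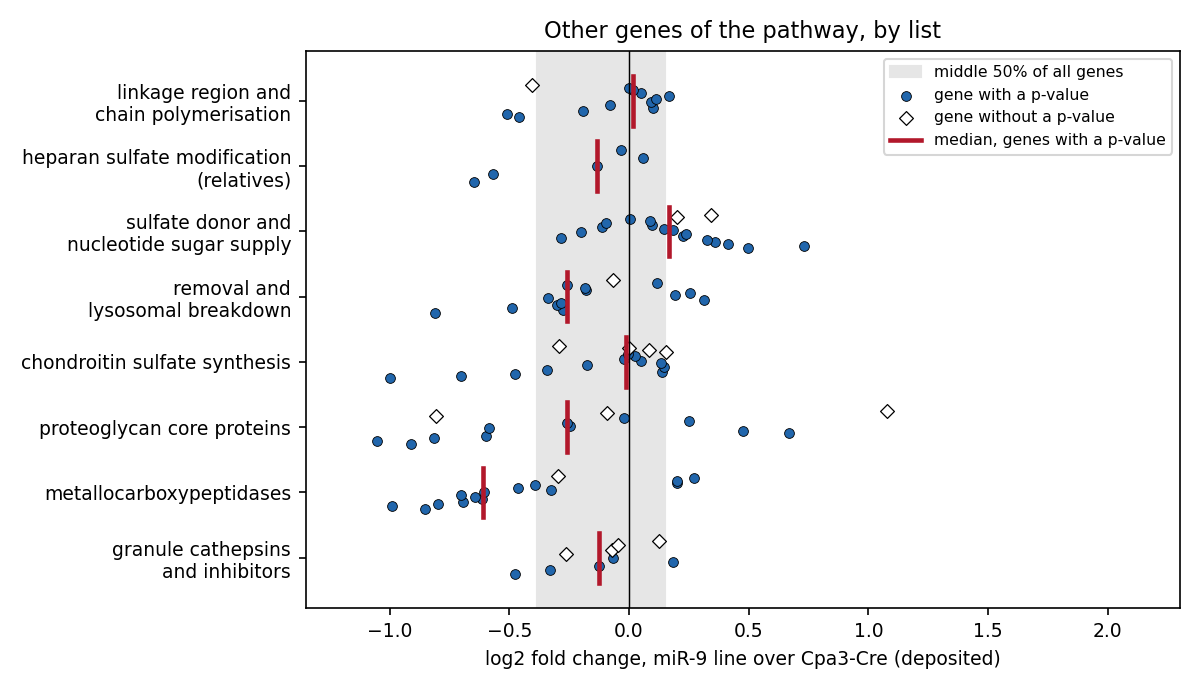
Log2 fold change from the authors' deposited table (x axis) of each gene in the 8 lists (y axis); red bars are medians of genes with a p-value, and the grey band is the middle 50% of all genes. The list medians run from -0.61 for metallocarboxypeptidases to 0.17 for sulfate donor and nucleotide sugar supply, and no gene shown passed the test.

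The members were searched for matches to the miR-9 seeds, since the allele of the miR-9 line concerns this microRNA. The mature sequences are those of RefSeq (GRCm38.p6), with the seed, bases 2 to 8, in capitals.
miR-9-5p: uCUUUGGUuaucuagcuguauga
miR-9-3p: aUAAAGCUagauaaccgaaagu
A site is the reverse complement of the seed, ACCAAAG for miR-9-5p and AGCTTTA for miR-9-3p, in the longest complete 3′ UTR that GENCODE M21 gives the gene. Of the 10 genes, 2 held a miR-9-5p site and 3 others a miR-9-3p site. Among 16552 genes with a 3′ UTR, 13.3 percent held the first and 11.9 percent the second. Hs3st5, the gene that fell, held neither in its 886 bases.

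The sites are printed, for the 5 genes that hold one, with their surroundings, 30 bases each, with the site in capitals.
Srgn, miR-9-5p site: gtgaacatataACCAAAGgggggagatgtc
Hs3st3b1, miR-9-5p site: tgctatgacacACCAAAGagtctcccagga
Cpa3, miR-9-3p site: ttaaaaagccccaataaAGCTTTAagtaaa
Hs2st1, miR-9-3p site: atccacttttaAGCTTTAtgagaaaaaaaa
Hs6st1, miR-9-3p site: ttgaacccgggAGCTTTAaagctttattta
In Srgn the site lies at chr10:62494008-62494014, and in Hs3st3b1 at chr11:63888423-63888429, both on the minus strand. The Hs3st3b1 site is followed by an A, which faces the first base of the microRNA in the usual extended site, and the Srgn site is not. The Cpa3 site, at chr3:20215626-20215632, starts at base 173 of a 3′ UTR of 185 bases, 6 bases from its end. Hs2st1 holds its site at chr3:144433023-144433029. Hs6st1 has 2 sites, starting at bases 2049 and 2057 of its 3′ UTR, at chr1:36106270-36106276 and chr1:36106278-36106284, of which the first is in capitals. The 2 genes with a miR-9-5p site had log2 fold changes of opposite sign per the authors' deposited table, 0.35 for Srgn and -1.17 for Hs3st3b1, and neither passed. The 3 genes with a miR-9-3p site stood at 0.42, 0.11 and 0.50 per the authors' deposited table, and none of these passed. A match is a description of the letters and does not show that the microRNA binds there.

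**Figure D4:**
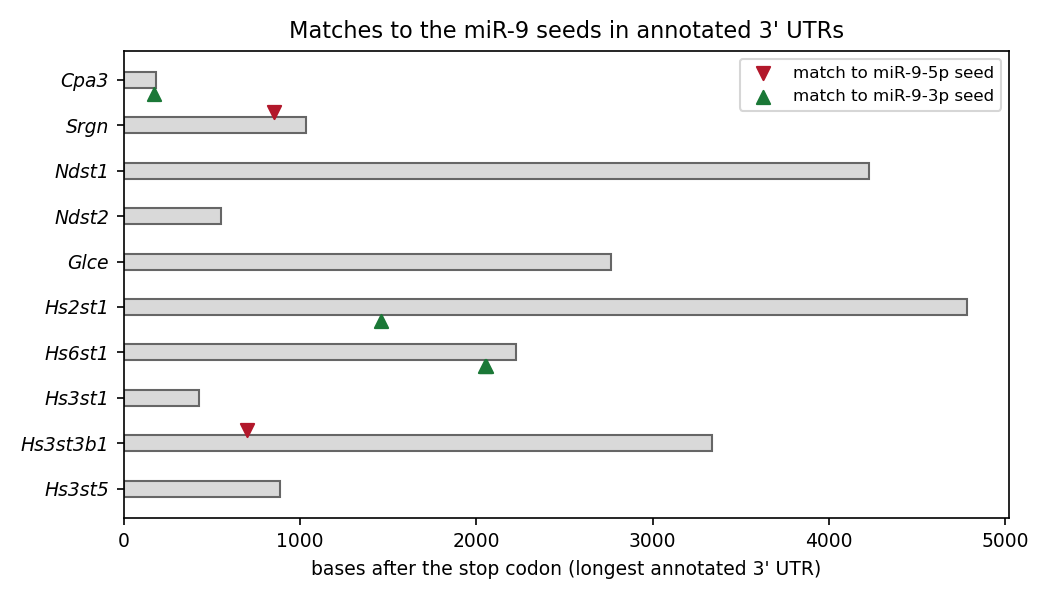
Length of the longest annotated 3′ UTR in bases after the stop codon (x axis, bars) for the 10 genes (y axis), with matches to the miR-9-5p seed above the bars and to the miR-9-3p seed below them. Srgn and Hs3st3b1 carry 1 match each to the first, Cpa3 and Hs2st1 1 each and Hs6st1 2 to the second, whose marks coincide at this scale, and the other 5 genes carry none.

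The labelled cell type was compared with its markers. Of 10 mast cell markers, all with a p-value, 1 rose, where 0.245 percent of all genes passed as higher. The median log2 fold change of these markers was 0.08. Cpa3 itself is among these 10, so the list is not independent of the genes described above. The one that rose was the tryptase gene Tpsb2, by 1.60 on the log2 scale from the authors' deposited table (adjusted p = 0.0149). How any reads that also match its relative Tpsab1 were counted was not given in the sources used here. The chymase gene Cma1, whose product is stored on heparin in the granule, stood at 0.97 (p = 0.0176, adjusted p = 0.442) per the authors' deposited table and did not pass. Kit, the stem cell factor receptor gene, stood at -0.04 (p = 0.910) and Ms4a2, which encodes an IgE receptor subunit, at 0.10 (p = 0.789) per the authors' deposited table. No marker of another cell type that had a p-value passed. Only 1 of 6 monocyte and macrophage markers, 2 of 4 basophil markers and none of 7 neutrophil and 4 eosinophil markers had one. The rest of these could not pass. The largest values in size among them were -0.71 for Adgre1, 0.52 for Prss34 and -0.47 for Mpo per the authors' deposited table. The tested monocyte and macrophage marker, Cx3cr1, stood at 0.77 (p = 0.0970, adjusted p = 0.728) per the authors' deposited table. The tested basophil markers Cd200r3 and Itga2b stood at 0.16 and 0.01 per the authors' deposited table. The 4 lymphocyte markers analysed ran from -0.67 to -0.34, the 3 stromal ones from -0.21 to 0.01 and the 3 endothelial ones from -0.53 to 0.05 per the authors' deposited table. The part of these cell types in the fall of Hs3st5 was not tested, and the markers' levels were not analysed here.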

How the data were processed

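RNA of 5 samples was sequenced as strand-marked, ribosome-depleted total RNA after heparinase treatment, at a stated depth of about 70000000 paired 50-base reads per sample, per the labels' protocols. The authors deposited a single table with a log2 fold change (miR-9 line over Cpa3-Cre), a signed linear fold and a p-value per gene, per the file headers. For the statistics the submitters' design text names DESeq2 and also an analysis of variance; STAR, HTSeq, DESeq2, Cuffdiff and DESeq, with GRCm38 and mm10, are listed per the submitters' processing notes, without versions. Which model, filters, strand setting and shrinkage were used, and how p was computed, was not given in the sources used here. A further 5 columns of values per library match no label and were not used, so no depth, replicate value or test of expression was computed, and the planned tests on such columns were not run.

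The 24071 deposited p-values were adjusted by Benjamini-Hochberg with statsmodels 0.14.6 (threshold 0.05). Implied standard errors are the size of the log2 fold change divided by the normal quantile of p (scipy 1.17.1). Lists are described by counts and medians, with older symbols matched through RefSeq (GRCm38.p6) synonyms; 6 of 109 listed genes were not analysed. Gene class and 3′ UTRs are from GENCODE M21. The code of the adjustment, standard errors and site search was tested on simulated data. For the standard errors the simulated p-values were made with the same normal formula, so whether the deposited p-values came from a Wald test was not tested. The genes, lists and tests were chosen with earlier results of these data known. Named are the 10 genes, their relatives (1 is not reported here), up to 4 genes of each list with the smallest p-values, and the nearest genes with a p-value beside Cpa3, Srgn and Hs3st5; Hpse, Kit, the genes overlapping Cpa3 and Hs3st5 and some markers were named after their values were seen. Alternatives were Benjamini-Yekutieli adjustment, empty p-values taken as 1, protein-coding genes only, unadjusted p under 0.0001 (the design text's threshold), and adjusted p under 0.10.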

Additional observations from a re-analysis of the deposited data

How the results depend on the processing

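With each of the 5 alternatives, Hs3st5 was the 1 gene of the set that passed, its adjusted p reaching at most 0.00662 (Benjamini-Yekutieli), and none of the 87 tested genes of the pathway lists passed. All 40 values of the 8 genes with a p-value stayed on their side of the threshold, and the lowest adjusted p of the other 7 was 0.418, for Hs3st3b1 among protein-coding genes. Across all genes the count of 99 moved to 24 with Benjamini-Yekutieli adjustment and to 233 at an adjusted p under 0.10, both by construction of the threshold. These alternatives reuse the same p-values, so they do not test the spread between samples.

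No paired analysis was possible because the values per library match no sample's labels and were not used, although 2 replicate numbers are shared by the groups. Leaving out a replicate, another pseudocount and a filter on low values were not run for the same reason.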
